A study of Mus musculus with 10 samples.

Results

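The genes described are the proteasome genes of tumour epithelial cells, meaning every protein-coding gene whose symbol begins with Psma, Psmb, Psmc, Psmd, Psme, Psmf or Psmg. By that rule 51 genes were taken of 51707 named genes quantified, and 4 pseudogenes with the same prefix were left out. The sequenced cells were epithelial cells that flow cytometry had recovered from mouse pancreatic ductal adenocarcinomas (PDAC), in 10 RNA sequencing libraries. The tumours were grown by placing T6-LOH organoids, which are pancreatic tumour organoids of the KPC mouse model, orthotopically alongside PSCs (pancreatic stellate cells), the fibroblast-like support cells of the pancreas. In 5 libraries the PSCs were the clone PSC4 EGFR KO B4 (Egfr KO PSC), and in 5 they were the line PSC4 ROSA (egfr), taken here to be the Egfr WT PSCs that the title names. Only 1 knockout clone was used, so the loss of Egfr and other features of that clone cannot be told apart. The organoids are the same in both groups, and Egfr was not deleted in the sequenced cells, so its level there (63.4 ± 9.12 CPM with Egfr KO PSCs and 58.5 ± 16.2 CPM with Egfr WT PSCs; SD, n = 5 each) does not check the labels. The title names NSG mice as hosts, a strain that lacks T, B and NK cells and keeps myeloid cells, while the strain label reads C57BL/6J without saying whether it belongs to the host or to the transplanted cells. The sources used here give neither the age of the animals nor the sort markers. Whether the libraries stem from separate animals is not stated in the labels, so the p-values below reflect library-to-library spread, which may be technical.

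The proteasome is the barrel-shaped protease that degrades proteins tagged with ubiquitin. Its 20S core stacks rings of alpha and beta subunits, and the 19S cap recognises, unfolds and feeds in the substrate. In cells exposed to interferon gamma the catalytic subunits Psmb6, Psmb7 and Psmb5 are replaced in newly made cores by Psmb9, Psmb10 and Psmb8, and the PA28 activator (Psme1 and Psme2) is made in larger amounts; this immunoproteasome produces peptides suited to display on MHC class I. Haematopoietic cells carry the immunoproteasome constitutively, whereas epithelial cells use mainly the constitutive core.

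The upstream sequences of the inducible subunits Psmb8 and Psmb9 and of the constitutive subunits that they replace, Psmb5 and Psmb6, are printed because these pairs carry the main contrast described here. Each window runs from 250 bases before to 50 bases after the start of the gene (RefSeq, GRCm38.p6; the deposited quantification used another build, so the windows serve as sequence only). Capitals mark the letters of a searched motif.
Psmb8, chr17:34197945-34198244, plus strand: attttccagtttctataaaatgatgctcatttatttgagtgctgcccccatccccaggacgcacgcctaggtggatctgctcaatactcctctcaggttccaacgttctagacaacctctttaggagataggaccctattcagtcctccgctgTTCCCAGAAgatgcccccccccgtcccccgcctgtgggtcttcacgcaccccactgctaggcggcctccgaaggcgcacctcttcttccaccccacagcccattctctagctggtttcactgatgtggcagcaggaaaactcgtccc
Psmb9, chr17:34187281-34187580, minus strand: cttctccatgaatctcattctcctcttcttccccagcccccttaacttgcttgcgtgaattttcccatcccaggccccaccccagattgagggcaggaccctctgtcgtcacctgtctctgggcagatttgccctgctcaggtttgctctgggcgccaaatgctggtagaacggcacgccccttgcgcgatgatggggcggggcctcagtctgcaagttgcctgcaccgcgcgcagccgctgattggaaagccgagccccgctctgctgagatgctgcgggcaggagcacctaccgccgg
Psmb5, chr14:54617946-54618245, minus strand: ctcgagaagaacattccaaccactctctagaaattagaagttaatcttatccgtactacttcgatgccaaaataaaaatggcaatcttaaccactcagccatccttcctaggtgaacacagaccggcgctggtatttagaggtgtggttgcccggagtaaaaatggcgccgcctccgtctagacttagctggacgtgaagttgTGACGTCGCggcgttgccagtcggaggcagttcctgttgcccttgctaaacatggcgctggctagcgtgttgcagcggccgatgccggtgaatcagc
Psmb6, chr11:70525107-70525406, plus strand: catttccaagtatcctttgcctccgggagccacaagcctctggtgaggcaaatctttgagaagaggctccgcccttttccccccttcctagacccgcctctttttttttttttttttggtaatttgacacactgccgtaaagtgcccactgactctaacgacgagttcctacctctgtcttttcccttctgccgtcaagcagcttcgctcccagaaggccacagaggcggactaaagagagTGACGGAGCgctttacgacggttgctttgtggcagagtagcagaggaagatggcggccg

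Short motifs, 3 in all, were searched on both strands in the promoter windows of 43 matched proteasome genes. The capitals in Psmb8 match TTCNNNGAA, the core of the interferon gamma-activated sequence, and those in Psmb5 and Psmb6 match TGACNNNGC, the core of the antioxidant response element read by the NRF1 and NRF2 factors. None of the 3 motifs was found in the Psmb9 window. The first motif was present in 3 of 47 member windows (6.38%) and in 8.30% of all 32851 windows of the same length. The antioxidant core was present in 6 of 47 (12.8%), against 12.4% of all windows. The letters GAAANNGAAA, which resemble the interferon-stimulated response element and can overlap TTCNNNGAA, were present in 5 of 47 member windows (10.6%; Psmb3, Psmd4, Psmd9, Psme1 and Psmg4), against 3.44% of all windows. These matches are letters only and show no binding. The Psmb9 window shares 275 of its 300 bases with that of Tap1, a subunit of the transporter that carries peptides into the endoplasmic reticulum, and the pair is read from opposite strands.

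Library depth lay between 39534100 and 53816100 estimated counts in named genes. Epithelial markers were abundant in every library: Krt19 had 3524 to 6226 CPM (TMM-normalised counts scaled to a common library total) with Egfr KO PSCs and 3255 to 3828 CPM with Egfr WT PSCs. Of the 8 epithelial markers 6 were higher with Egfr KO PSCs and 2 lower, with log2 fold changes of 0.32 for Krt19 and -0.63 for Muc1. The 14 macrophage markers summed to 225 to 337 CPM with Egfr KO PSCs and 275 to 469 CPM with Egfr WT PSCs, most of it Cd14. Of the 13 tested 10 were lower, 8 of them at an unadjusted edgeR p under 0.05, against 4.6% of all genes tested in that direction. The 11 fibroblast markers summed to 347 to 1266 CPM with Egfr KO PSCs and 374 to 959 CPM with Egfr WT PSCs, and 8 of them were lower. Among these, the collagen gene Col1a1 had 94.6, 69.8, 142, 90.04 and 86.4 CPM with Egfr KO PSCs, against 139, 184, 157, 261 and 251 CPM with Egfr WT PSCs (log2 fold change -1.04 ± 0.22 SE; adjusted p = 0.321 by edgeR and 0.00592 by DESeq2). Of the endothelial markers 7 of 7 were lower, at 8.83 to 46.02 CPM in sum with Egfr KO PSCs and 21.4 to 33.3 CPM with Egfr WT PSCs. The neutrophil markers summed to 2.59 to 5.39 CPM with Egfr KO PSCs and 1.93 to 5.70 CPM with Egfr WT PSCs, and 3 of the 4 tested were lower. The fourth, Ly6g, was higher without overlap, where 1.52% of all genes had none, at 0.9745, 1.41, 3.15, 3.07 and 1.26 CPM with Egfr KO PSCs, against 0.826, 0.831, 0.436, 0.639 and 0.670 CPM with Egfr WT PSCs (log2 fold change 1.53 ± 0.37 SE; adjusted p = 0.376 by edgeR and 0.0185 by DESeq2). The 7 lymphocyte markers summed to 0.234 to 0.555 CPM with Egfr KO PSCs and 0.189 to 0.508 CPM with Egfr WT PSCs, and Cd3d, Cd3e, Ms4a1, Ncr1 and Nkg7 were among those at 0 in some library.

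The constitutive proteasome was abundant and even between libraries, and 28 of its 31 subunit genes averaged slightly higher in tumour cells grown with Egfr KO PSCs, with no gene past the test. The inducible subunits were at a small share of their counterparts in both groups and all 3 averaged lower CPM with Egfr KO PSCs, with overlap between libraries, though the sign for Psmb10 turned with the fibroblast score of each library as a covariate (0.040). No proteasome gene passed an adjusted p of 0.05 when the groups were compared with edgeR's quasi-likelihood test and p-values were adjusted (Benjamini-Hochberg) over 17495 genes, and nor did any other gene (0% called). At an unadjusted p under 0.05 the same test listed 6 of the 50 proteasome genes tested, against 8.15% of all genes. Of these, 4 were higher with Egfr KO PSCs (Psmb3, Psmd9, Psmd12 and Psmc5), against 3.55% of all genes, and 2 were lower (Psmg2 and Psme2b), against 4.6% of all genes. DESeq2 called 0 of the 50 proteasome genes and 0.831% of all genes with an adjusted p, and limma voom called 0 of the 50 and 0.0171% of all genes. Psmb11, the thymus-specific catalytic subunit, was below the expression filter at 0.0357 to 0.163 TPM with Egfr KO PSCs and 0.0371 to 0.0976 TPM with Egfr WT PSCs.

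**Figure D1:**
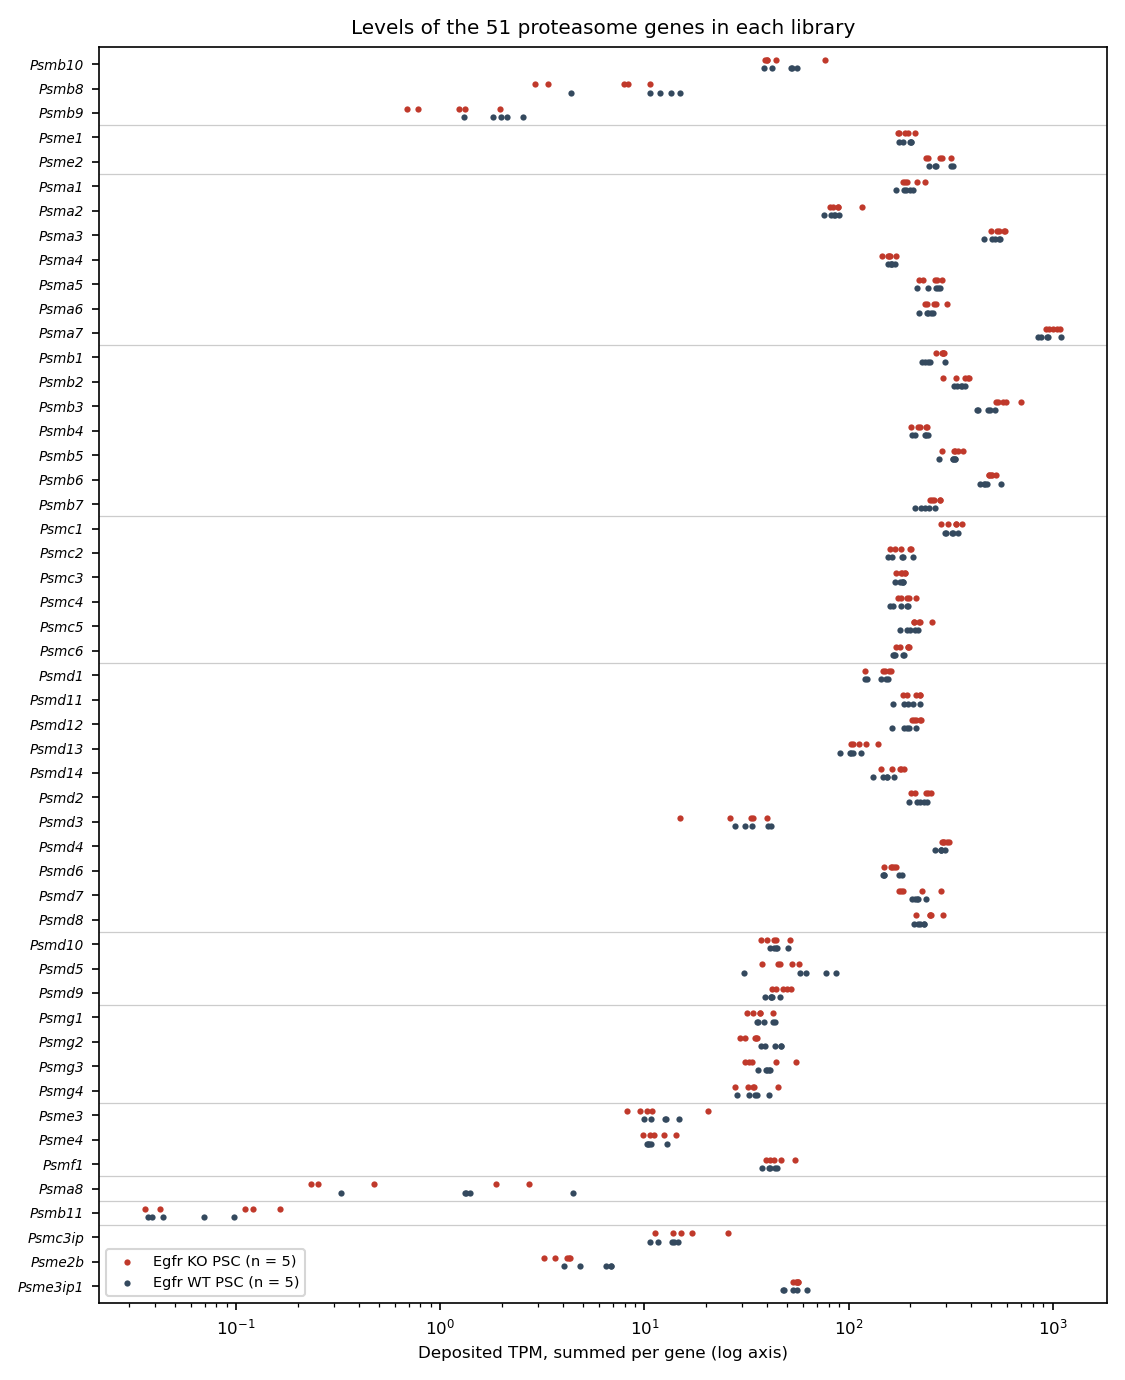
Deposited TPM of the 51 proteasome genes, summed per gene, in each of 10 libraries (log axis), with the 5 Egfr KO PSC libraries drawn above the 5 Egfr WT PSC libraries and grey lines between roles. The constitutive subunits span a wide range, with Psma7 the highest and Psmd3 the lowest of them, and Psmb8 and Psmb9 lie below all of them in every library.

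Among the alpha ring genes, which form the gated outer rings of the core, levels per length were spread over a wide range. Psma7 was the most abundant proteasome transcript at 1009 ± 64.2 TPM with Egfr KO PSCs and 944 ± 97.2 TPM with Egfr WT PSCs (SD, n = 5 each). Psma2 was the least abundant ring member at 91.8 ± 14.1 TPM with Egfr KO PSCs and 83.7 ± 5.17 TPM with Egfr WT PSCs. The log2 fold changes of the 7 genes lay between -0.02 (Psma4) and 0.17 (Psma2), with 6 above 0.

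All 7 constitutive beta subunits had log2 fold changes above 0, from 0.01 (Psmb4) to 0.35 (Psmb3). Psmb3 is a non-catalytic beta subunit and gave the lowest p of the higher genes. It had 274, 233, 251, 242 and 342 CPM with Egfr KO PSCs, against 188, 203, 206, 215 and 241 CPM with Egfr WT PSCs (log2 fold change 0.35 ± 0.12 SE; adjusted p = 0.495 by edgeR). A single Egfr WT PSC library reached into the Egfr KO PSC range in CPM. On the TPM scale Psmb3 had 528 to 702 TPM with Egfr KO PSCs and 425 to 523 TPM with Egfr WT PSCs. These ranges did not meet, but the share of all genes without overlap in TPM was not computed. Psmb1, another non-catalytic subunit, had 286 ± 9.25 TPM with Egfr KO PSCs and 251 ± 26.7 TPM with Egfr WT PSCs.

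None of the 3 constitutive catalytic subunits passed the test. Psmb5, which cleaves after hydrophobic residues, had 162 to 185 CPM with Egfr KO PSCs (median 178) and 138 to 186 CPM with Egfr WT PSCs (median 169), a log2 fold change of 0.08 ± 0.10 SE. Psmb6, which cleaves after acidic residues, had 229, 222, 217, 229 and 259 CPM with Egfr KO PSCs, against 205, 214, 197, 209 and 260.0 CPM with Egfr WT PSCs, a log2 fold change of 0.09 ± 0.10 SE. Both groups held 1 library well above the other 4. Psmb7, which cleaves after basic residues, had 195, 203, 189, 208 and 199.7 CPM with Egfr KO PSCs, against 169.8, 178, 148, 178 and 199.7 CPM with Egfr WT PSCs (log2 fold change 0.19 ± 0.09 SE; adjusted p = 0.647 by edgeR). All but 1 of the Egfr WT PSC libraries lay below every Egfr KO PSC library for Psmb7.

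In the 19S cap, the 6 ATPases that unfold the substrate all had log2 fold changes above 0, between 0.03 and 0.19. Psmc5 had 177 to 210.2 CPM with Egfr KO PSCs (median 185) and 160.0 to 179 CPM with Egfr WT PSCs (median 169), and gave a log2 fold change of 0.19 ± 0.09 SE (adjusted p = 0.604 by edgeR). Of the 11 non-ATPase subunits 9 were above 0. Psmd12, a scaffold subunit of the lid, had 260.1, 270.3, 245, 261 and 289.6 CPM with Egfr KO PSCs, against 230.0, 208, 226, 250.1 and 229 CPM with Egfr WT PSCs (log2 fold change 0.21 ± 0.09 SE; adjusted p = 0.556 by edgeR). The ranges met at 1 library of each group. Psmd14, the deubiquitinase of the lid, had 139.7 to 196 CPM with Egfr KO PSCs (median 173) and 137 to 162 CPM with Egfr WT PSCs (median 147), with overlap (log2 fold change 0.21 ± 0.10 SE; adjusted p = 0.646).

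Psmd3, another lid subunit, stood apart from its complex in level and in spread. It had 29.6 ± 9.57 TPM with Egfr KO PSCs and 34.8 ± 5.85 TPM with Egfr WT PSCs, where the other 10 non-ATPases averaged at least 109.7 TPM. Its within-group coefficient of variation was the highest of the 31 constitutive subunits in the Egfr KO PSC libraries, at 29.7%, against 14.1% in the Egfr WT PSC libraries. Its log2 fold change was -0.21 ± 0.20 SE (adjusted p = 0.818 by edgeR), and -0.050 without Egfr KO PSC replicate 5, which had 21.5 CPM where the other Egfr KO PSC libraries had 34.9 to 51.7 CPM.

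Counted together, 28 of the 31 constitutive subunits had a log2 fold change above 0, with Psma4, Psmd3 and Psmd7 below it, where 50.1% of all genes tested were above 0. Their median log2 fold change was 0.10, against 0.00041 for all genes tested. These subunits share libraries and are commonly regulated together, so they are not independent observations. The mean log2(CPM + 1) of the 31 subunits was 7.67, 7.63, 7.63, 7.66 and 7.75 with Egfr KO PSCs, against 7.57, 7.60, 7.44, 7.62 and 7.62 with Egfr WT PSCs. The ranges did not overlap, by a margin smaller than the spread within either group. Egfr WT PSC replicate 3 had the lowest CPM of all libraries for 16 of the 31 genes, and Egfr KO PSC replicate 5 had the highest for 16 of 31. Without the first of these libraries 24 of 31 were above 0 and the median was 0.06, and without the second 25 of 31 were above 0 and the median was 0.07. With the macrophage score of each library as a covariate 25 of 31 were above 0. On the TPM scale the 31 genes summed to 8228 to 8520 TPM with Egfr KO PSCs and 7502 to 8260 TPM with Egfr WT PSCs, and these sums overlapped.

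The constitutive subunits varied little between libraries of 1 group. Their median coefficient of variation in CPM was 8.28% with Egfr KO PSCs and 7.91% with Egfr WT PSCs, where that over all genes tested was 24.0% with Egfr KO PSCs and 20.4% with Egfr WT PSCs. The subunits were also more highly expressed than most genes, and the part of expression level in this difference in spread was not tested.

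**Figure D2:**
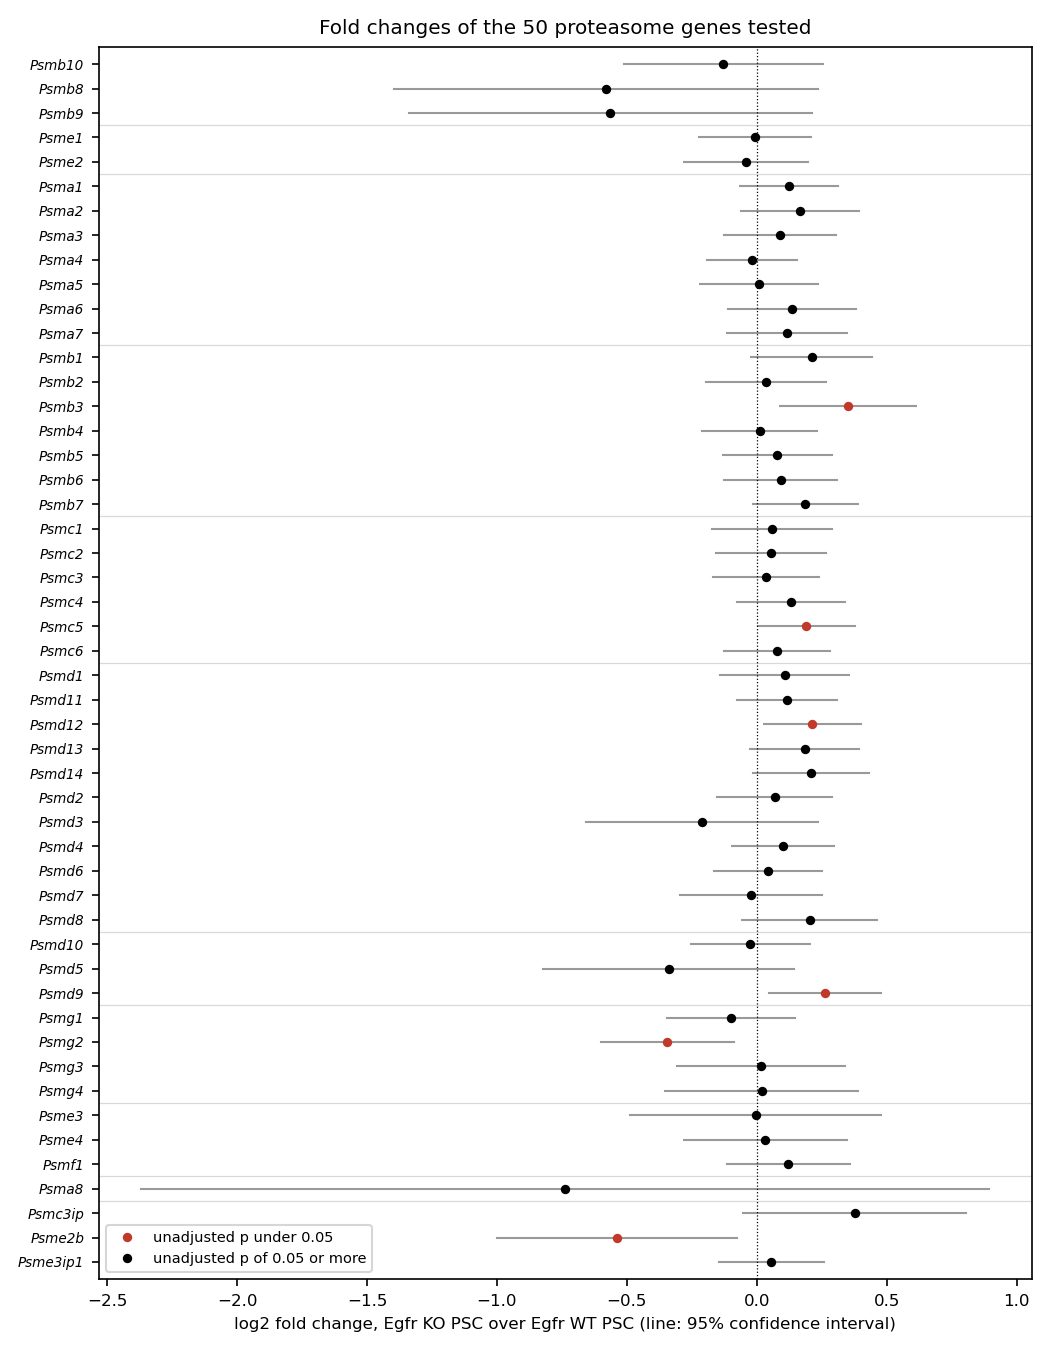
Log2 fold change (Egfr KO over Egfr WT PSC) for the 50 proteasome genes tested (points), with 95% confidence intervals (lines) and grey lines between roles. The constitutive subunits lie mostly just above 0, and the 6 red points had an unadjusted edgeR p under 0.05.

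The 3 inducible catalytic subunits were expressed at very different levels per length. Psmb10 had 48.05 ± 16.3 TPM with Egfr KO PSCs and 48.4 ± 7.41 TPM with Egfr WT PSCs. Psmb8 had 6.64 ± 3.37 TPM with Egfr KO PSCs and 11.1 ± 4.08 TPM with Egfr WT PSCs. Psmb9 had 1.20 ± 0.510 TPM with Egfr KO PSCs and 1.95 ± 0.454 TPM with Egfr WT PSCs. The order Psmb10, Psmb8, Psmb9 was the same in all 10 libraries. The depth behind these values differs: Psmb9 rested on 24.0 to 102 estimated counts per library, Psmb8 on 92.0 to 457 and Psmb10 on 785 to 1484.

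Psmb8, the inducible chymotrypsin-like subunit, had 5.54, 2.49, 6.73, 2.19 and 6.78 CPM with Egfr KO PSCs, against 3.03, 8.29, 9.05, 6.94 and 8.17 CPM with Egfr WT PSCs. Of the Egfr WT PSC libraries 4 lay above every Egfr KO PSC library, and the fifth lay among the low ones. The log2 fold change was -0.58 ± 0.37 SE (adjusted p = 0.717 by edgeR). Psmb9, the inducible subunit that replaces Psmb6, had 1.05, 0.618, 1.69, 0.571 and 1.24 CPM with Egfr KO PSCs, against 0.758, 1.93, 1.57, 1.40 and 1.99 CPM with Egfr WT PSCs. The groups overlapped through the same Egfr WT PSC library and through Egfr KO PSC replicate 3 (log2 fold change -0.56 ± 0.36 SE; adjusted p = 0.713 by edgeR). Psmb10, the inducible subunit that replaces Psmb7, had 21.1, 17.7, 30.9, 18.9 and 23.8 CPM with Egfr KO PSCs, against 27.3, 28.0, 21.4, 18.6 and 27.6 CPM with Egfr WT PSCs. The ranges overlapped throughout (log2 fold change -0.13 ± 0.18 SE; adjusted p = 0.870). The Psmb10 value was -0.0055 with an effective-length offset, -0.26 without Egfr KO PSC replicate 3 and -0.049 without Egfr KO PSC replicate 2.

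The PA28 activator genes lay at the level of the constitutive genes, well above the inducible catalytic subunits. Psme1 had 123, 131, 106, 126 and 117 CPM with Egfr KO PSCs, against 111, 136, 106, 122 and 129 CPM with Egfr WT PSCs (log2 fold change -0.01 ± 0.10 SE; 95% confidence interval -0.22 to 0.21; adjusted p = 0.993). Psme2 had 141, 172, 152, 156 and 141 CPM with Egfr KO PSCs, against 135, 158, 137, 168 and 186 CPM with Egfr WT PSCs (log2 fold change -0.04 ± 0.11 SE; 95% confidence interval -0.28 to 0.20; adjusted p = 0.942). Per length they had 190.0 ± 15.6 and 274 ± 31.1 TPM with Egfr KO PSCs, against 193 ± 11.1 and 284 ± 34.3 TPM with Egfr WT PSCs, within the range of the 19S ATPases. The sign of the Psme1 difference turned under other scalings, including upper-quartile scaling (0.0083), so no direction is given for it.

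**Figure D3:**
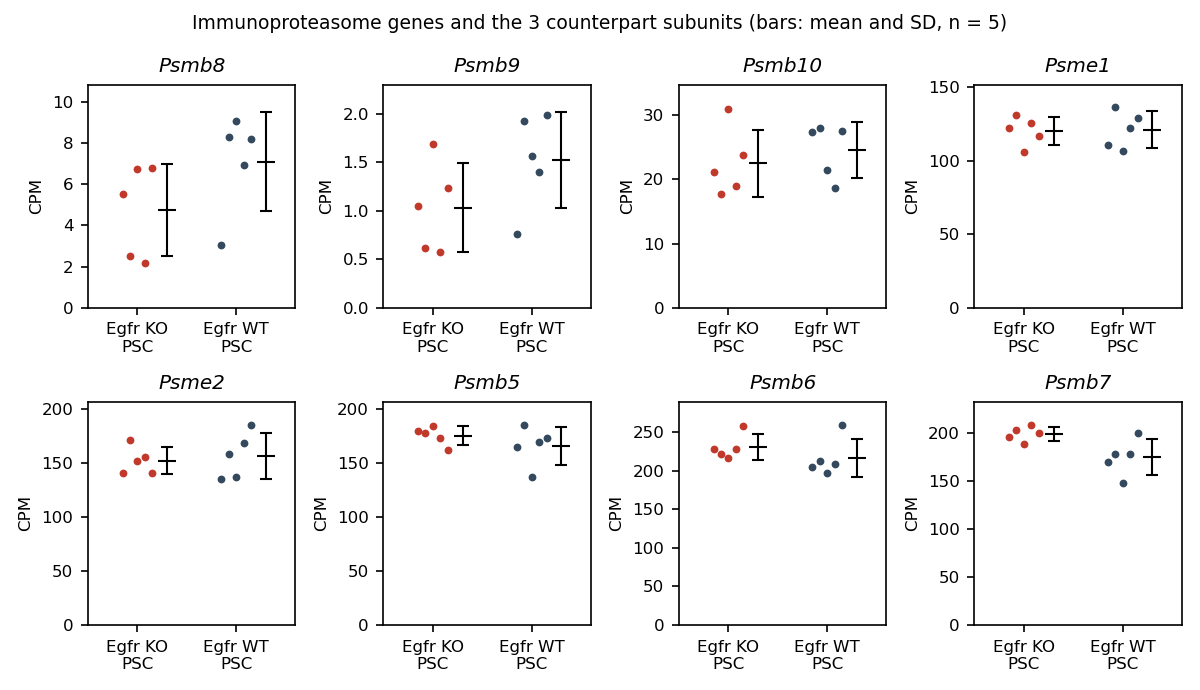
TMM-normalised CPM of the 5 immunoproteasome genes and of the constitutive subunits Psmb5, Psmb6 and Psmb7 in each library (points; Egfr KO PSC left, Egfr WT PSC right), with the mean and SD of 5 libraries; axes start at 0 and differ in scale. Psmb8 and Psmb9 are spread widely within both groups, and Psme1, Psme2 and the constitutive subunits are not.

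Setting each inducible subunit over the constitutive subunit it replaces removes what both genes of a library share. The TPM used was summed over all transcripts of a gene, among them the Psmb8 transcripts that keep an intron, described below. The Psmb8 level was 2.38, 0.976, 2.95, 0.882 and 2.89% of the Psmb5 level in TPM with Egfr KO PSCs, against 1.35, 3.61, 5.40, 3.21 and 4.18% with Egfr WT PSCs. The mean log2 ratio differed by -0.87 between Egfr KO PSC and Egfr WT PSC libraries (two-sided exact permutation p = 0.127, Benjamini-Hochberg p = 0.190 over the 3 ratios). Without Egfr WT PSC replicate 1, which had the lowest ratio of its group, the difference was -1.18 with an adjusted exact permutation p of 0.0476. That library was the only one of its group within the Egfr KO PSC range, so leaving it out separates the groups. The test must then return the smallest unadjusted p that the remaining libraries allow, and this value adds no support. Leaving out any other single library gave adjusted exact permutation p-values of 0.0952 to 0.381, the highest without Egfr KO PSC replicate 2 (-0.65) and without Egfr KO PSC replicate 4 (-0.62).

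The Psmb9 level was 0.253, 0.156, 0.401, 0.136 and 0.251% of the Psmb6 level in TPM with Egfr KO PSCs, against 0.278, 0.479, 0.393, 0.416 and 0.456% with Egfr WT PSCs. The highest Egfr KO PSC library lay within the Egfr WT PSC range and the other 4 lay below it. The log2 difference was -0.84 (two-sided exact permutation p = 0.0238, adjusted p = 0.0714), which did not pass the threshold after adjustment. It passed with an adjusted exact permutation p of 0.0476 without Egfr KO PSC replicate 3 (-1.05), without Egfr WT PSC replicate 1 (-0.97) and with 1 TPM added to both genes (-0.51). The added 1 TPM is of the order of the Psmb9 level itself, which averaged 1.20 TPM with Egfr KO PSCs and 1.95 TPM with Egfr WT PSCs. Egfr KO PSC replicate 3 was the only library of its group within the Egfr WT PSC range. Leaving it out separates the groups, so the test must return its smallest unadjusted p, and that pass adds no support. Egfr WT PSC replicate 1 had the lowest ratio of its group, so leaving it out must also widen the difference. In CPM the adjusted exact permutation p was 0.151, and leaving out any other single library gave 0.0952 to 0.143.

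The Psmb10 level was 15.6, 14.0, 29.3, 14.2 and 17.7% of the Psmb7 level in TPM with Egfr KO PSCs, against 23.5, 23.2, 20.01, 15.7 and 20.01% with Egfr WT PSCs. Of the Egfr KO PSC libraries 1 was above every Egfr WT PSC library, and the log2 difference was -0.22 (exact permutation p = 0.333, adjusted p = 0.333). Without that library, replicate 3, it was -0.41 with an adjusted exact permutation p of 0.0476. That library had the highest ratio of its group, so leaving it out must widen the difference, and that pass adds no support. Leaving out any other single library gave adjusted exact permutation p-values of 0.206 to 0.556. With 5 libraries in each group the smallest p that this exact test can give is 0.00794, and it is larger with a library left out.

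The 5 immunoproteasome genes were also set against the 31 constitutive subunits in each library. The mean log2(CPM + 1) of the 5 genes minus that of the 31 was -3.21, -3.39, -2.96, -3.47 and -3.19 with Egfr KO PSCs, against -3.26, -2.79, -2.84, -3.04 and -2.78 with Egfr WT PSCs. The group means were -3.24 ± 0.201 with Egfr KO PSCs and -2.94 ± 0.204 with Egfr WT PSCs (SD, n = 5 each), a difference of -0.30 that is described without a test. The mean of the immunoproteasome genes alone differed by -0.20 and that of the constitutive genes by 0.098. With the inducible catalytic subunits alone the contrast differed by -0.42.

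**Figure D4:**
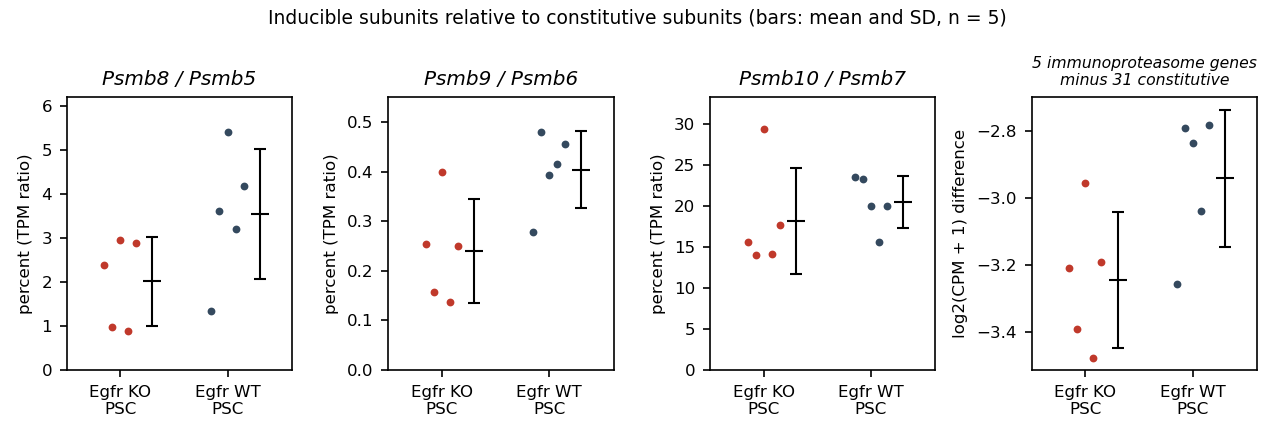
TPM of Psmb8, Psmb9 and Psmb10 as a percentage of Psmb5, Psmb6 and Psmb7, and the log2(CPM + 1) difference between the 5 immunoproteasome genes and the 31 constitutive subunits, per library (points; Egfr KO PSC left, Egfr WT PSC right) with mean and SD of 5 libraries. Egfr WT PSC replicate 1 lies with the Egfr KO PSC libraries in the Psmb8, Psmb9 and combined panels.

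Psmb9, Tap1, Psmb8 and Tap2 follow one another in that order on chromosome 17, inside the MHC, and they were low in the same libraries. Egfr KO PSC replicates 2 and 4 and Egfr WT PSC replicate 1 were picked as the 3 lowest libraries of Psmb8. They were also the 3 lowest for Psmb9, Tap1 and Tap2. The same 3 libraries were the lowest for 185 of the 17495 genes tested (1.06%). Of the listed class I pathway genes only Tap1 and Tap2 shared them, and H2-K1, H2-D1 and Tapbp, also on chromosome 17, did not. Tap1 had 4.27, 2.07, 4.09, 2.10 and 5.47 CPM with Egfr KO PSCs, against 2.34, 4.70, 6.48, 3.91 and 4.55 CPM with Egfr WT PSCs. Tap2 had 13.6, 7.80, 15.5, 6.98 and 19.1 CPM with Egfr KO PSCs, against 10.6, 20.1, 22.7, 16.1 and 22.1 CPM with Egfr WT PSCs. The low libraries were therefore 2 of 5 with Egfr KO PSCs and 1 of 5 with Egfr WT PSCs, and the split did not follow the groups. Psmb10 lies on chromosome 8, and its 3 lowest libraries were Egfr KO PSC replicates 2 and 4 and Egfr WT PSC replicate 4.

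**Figure D5:**
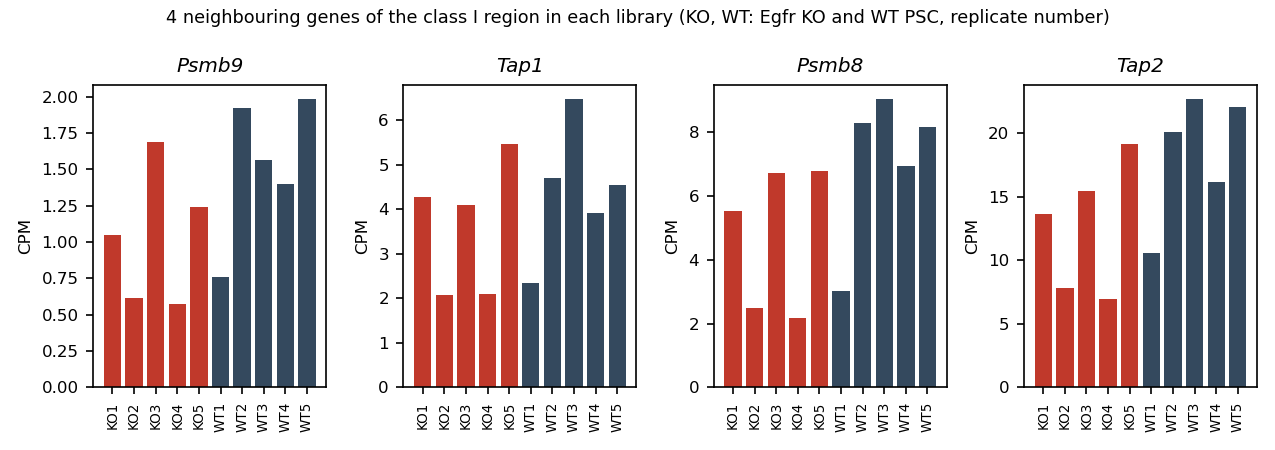
TMM-normalised CPM of 4 neighbouring genes of chromosome 17 in each library (bars from 0; KO1 to KO5 are the Egfr KO PSC libraries and WT1 to WT5 the Egfr WT PSC libraries). KO2, KO4 and WT1 are the lowest bars in every panel.

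Of 13 tested markers of macrophages 10 had a negative log2 fold change. The other 3 had a positive one: Mrc1 (0.54), Csf1r (0.27) and Cd68 (0.15). The leukocyte gene Ptprc had 1.73, 0.792, 0.740, 0.667 and 1.22 CPM with Egfr KO PSCs, against 2.04, 4.34, 4.04, 1.97 and 0.993 CPM with Egfr WT PSCs. Its lowest Egfr WT PSC library was replicate 5, not replicate 1. The 3 libraries low in the chromosome 17 genes were also the lowest of their groups in summed macrophage markers, at 227 and 225 CPM for Egfr KO PSC replicates 2 and 4 (next lowest 235 CPM) and 275 CPM for Egfr WT PSC replicate 1 (next lowest 295 CPM), and the part of these cells in the result was not tested beyond the fits given here. Cd14 made up most of each sum and was itself lowest of its group in these libraries, so the sums mostly follow this gene. It had 168 and 137 CPM in Egfr KO PSC replicates 2 and 4 and 233 CPM in Egfr WT PSC replicate 1. Mrc1, another of the markers, was highest of all libraries in Egfr KO PSC replicate 4, at 66.7 CPM. Adgre1 had only 0.219 ± 0.131 CPM with Egfr KO PSCs and 0.512 ± 0.262 CPM with Egfr WT PSCs. Which cells the Cd14 counts came from was not tested. In the mean log2(CPM + 1) score of all 14 markers Egfr KO PSC replicate 4 (1.72) and Egfr WT PSC replicate 1 (1.85) were lowest of their groups. Egfr KO PSC replicate 2 was the second highest of its group at 1.89. With the macrophage score as a covariate in edgeR, the log2 fold change was -0.11 for Psmb8 and -0.14 for Psmb9, in place of -0.58 and -0.56. The score itself averaged 1.85 ± 0.102 with Egfr KO PSCs and 2.17 ± 0.311 with Egfr WT PSCs (SD). A covariate that differs between the groups can take up a group difference of any source, so the shift does not show where the difference comes from. No proteasome gene kept an unadjusted p under 0.05 in that fit, and over all genes tested 765 did, against 1426 without the covariate. The log2 fold changes of the 6 proteasome genes concerned were 0.33 for Psmb3, 0.28 for Psmd9, 0.14 for Psmd12, 0.21 for Psmc5, -0.29 for Psmg2 and -0.52 for Psme2b, against 0.35, 0.26, 0.21, 0.19, -0.34 and -0.54 without the covariate. With the fibroblast score the log2 fold change was -0.35 for Psmb8, -0.21 for Psmb9 and 0.040 for Psmb10. That score too was lower on average with Egfr KO PSCs (3.43 ± 0.318, against 3.81 ± 0.309 with Egfr WT PSCs). In sorted bulk material, fewer cells of a type and less RNA per cell cannot be told apart.

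Transcripts that keep an intron made up a variable part of the Psmb8 counts. They held 27.7, 2.97, 50.6, 5.64 and 4.28% of the Psmb8 counts with Egfr KO PSCs, against 22.4, 47.2, 44.0, 26.1 and 33.4% with Egfr WT PSCs. The retained-intron transcript Psmb8-205 had 41.0 ± 62.9 estimated counts with Egfr KO PSCs and 113 ± 72.6 with Egfr WT PSCs, and was listed at 0 in 3 of the Egfr KO PSC libraries. Among the coding transcripts, Psmb8-203 had 71.2 ± 35.6 counts with Egfr KO PSCs and 135 ± 59.4 with Egfr WT PSCs, whereas Psmb8-201 had 96.6 ± 57.3 with Egfr KO PSCs and 74.0 ± 19.7 with Egfr WT PSCs. Counting protein-coding transcripts only, the Psmb8 log2 fold change was -0.27 in place of -0.58, that of Psmb9 was -0.58 and that of Psmb10 was -0.26 in place of -0.13. For Psmb10 the intron-keeping share was 33.4 ± 7.23% with Egfr KO PSCs and 30.4 ± 3.94% with Egfr WT PSCs, and for Psme1 and Psme2 it was under 5% in every library.

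The assembly chaperones, which build the core and the cap but are absent from the finished particle, were split in direction. Of the 3 chaperones of the 19S base 1 was above 0 and 2 were below. Psmd9 had 40.3, 41.7, 41.99, 36.8 and 47.6 CPM with Egfr KO PSCs, against 32.1, 34.6, 33.2, 37.6 and 36.2 CPM with Egfr WT PSCs (log2 fold change 0.26 ± 0.10 SE; adjusted p = 0.515 by edgeR). The groups overlapped in 1 library of each. Psmd5 had 115, 97.7, 75.1, 83.7 and 80.3 CPM with Egfr KO PSCs, against 142, 117, 141, 115 and 55.6 CPM with Egfr WT PSCs (log2 fold change -0.34 ± 0.22 SE; adjusted p = 0.718), and its lowest library was an Egfr WT PSC one. Psmd10 had 43.2 ± 5.56 TPM with Egfr KO PSCs and 44.8 ± 3.43 TPM with Egfr WT PSCs.

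Psmg2, which pairs with Psmg1 to assemble the alpha ring, was the proteasome gene with the lowest p and the only one without overlap between groups in CPM, where 1.52% of all genes had none. It had 20.9, 22.2, 22.8, 23.0 and 20.6 CPM with Egfr KO PSCs, against 29.3, 32.7, 23.0, 24.7 and 29.3 CPM with Egfr WT PSCs (log2 fold change -0.34 ± 0.12 SE; 95% confidence interval -0.60 to -0.09; adjusted p = 0.495 by edgeR). The highest Egfr KO PSC library and the lowest Egfr WT PSC library had the same value to 3 digits. Its log2 fold change stayed between -0.41 and -0.26 under the 19 alternatives, and its lowest adjusted p was 0.210, in DESeq2. Its partner Psmg1 had 36.4 ± 4.003 TPM with Egfr KO PSCs and 39.3 ± 3.67 TPM with Egfr WT PSCs. Psmg3 and Psmg4, which form the other chaperone pair of the ring, had log2 fold changes of 0.02 each.

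The remaining activators were low. Psme3, the nuclear activator PA28 gamma, had 11.9 ± 4.88 TPM with Egfr KO PSCs and 12.2 ± 1.88 TPM with Egfr WT PSCs. Psme4, which encodes the activator PA200, had 11.6 ± 1.77 TPM with Egfr KO PSCs and 11.0 ± 1.11 TPM with Egfr WT PSCs. Psmf1, the inhibitor PI31, had 45.0 ± 5.86 TPM with Egfr KO PSCs and 41.7 ± 2.71 TPM with Egfr WT PSCs. Psma8, the alpha subunit of the testis proteasome, had 1.77, 0.405, 2.64, 0.262 and 0.304 CPM with Egfr KO PSCs, against 0.275, 4.47, 1.29, 1.40 and 1.52 CPM with Egfr WT PSCs (log2 fold change -0.74 ± 0.75 SE; adjusted p = 0.827). Its log2 fold change was 0.82 with the macrophage score as a covariate (adjusted p = 0.998 by edgeR). Single libraries moved the Psma8 value, to -0.047 without Egfr WT PSC replicate 2 and to -1.38 without Egfr KO PSC replicate 3. Its SD in each group was close to its mean.

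The rule also took in genes that share the prefix without being subunits. Psme2b is a near copy of Psme2, so its counts depend on how shared reads were divided. It had 1.66, 2.10, 1.78, 2.10 and 2.31 CPM with Egfr KO PSCs, against 1.95, 2.59, 3.27, 3.32 and 3.32 CPM with Egfr WT PSCs (log2 fold change -0.54 ± 0.21 SE; adjusted p = 0.547 by edgeR), with 1 Egfr WT PSC library inside the Egfr KO PSC range. Psmc3ip, a recombination factor of meiosis, had 16.6 ± 5.49 TPM with Egfr KO PSCs and 12.9 ± 1.69 TPM with Egfr WT PSCs. Psme3ip1, a partner of PA28 gamma, had 55.5 ± 1.34 TPM with Egfr KO PSCs and 53.6 ± 5.99 TPM with Egfr WT PSCs.

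Genes that work with the proteasome but carry other names were read from lists. Of 8 subunits, deubiquitinases and assembly factors 5 were above 0 and 3 below, with a median log2 fold change of 0.04. Pomp, the factor that completes the core, had 208 ± 19.1 CPM with Egfr KO PSCs and 188 ± 13.3 CPM with Egfr WT PSCs (adjusted p = 0.723, edgeR). Sem1, a small lid subunit, had 113 ± 31.9 CPM with Egfr KO PSCs and 92.4 ± 13.7 CPM with Egfr WT PSCs (adjusted p = 0.686, edgeR). NRF1 and NRF2 are the factors that raise proteasome genes when degradation is impaired. Of 8 genes, these factors themselves together with genes that release or restrain them, 4 were above 0 and 4 below. Vcp, the ATPase that extracts proteins from membranes, had 878 ± 113 CPM with Egfr KO PSCs and 752 ± 57.8 CPM with Egfr WT PSCs (log2 fold change 0.22; adjusted p = 0.650, edgeR). Sel1l, which holds the ubiquitin ligase of the endoplasmic reticulum, had 108 ± 25.1 CPM with Egfr KO PSCs and 134 ± 30.0 CPM with Egfr WT PSCs. None of these genes had an unadjusted p under 0.05.

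Ubiquitin supply and delivery genes mostly had small positive differences, 11 of 13 above 0, and again none had an unadjusted p under 0.05. Uba6, an E1 enzyme that activates ubiquitin, had 89.9 ± 14.6 CPM with Egfr KO PSCs and 74.9 ± 9.97 CPM with Egfr WT PSCs (adjusted p = 0.646, edgeR). Ubqln4, a shuttle that brings ubiquitinated proteins to the proteasome, had 52.6, 84.1, 66.3, 60.2 and 18.5 CPM with Egfr KO PSCs, against 101, 93.2, 112, 86.4 and 38.8 CPM with Egfr WT PSCs (log2 fold change -0.62; adjusted p = 0.682, edgeR). Replicate 5 was the lowest library in each group for Ubqln4, a number that pairs no libraries.

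The inducers of the immunoproteasome and the class I pathway mostly had log2 fold changes below 0, some of them barely so. Of 15 such genes 13 were below 0, 3 of them at an unadjusted edgeR p under 0.05, against 4.6% of all genes tested in that direction. Among the 13, the other interferon gamma receptor chain Ifngr1 (-0.0047), the class I chain H2-K1 (-0.018) and Tapbp (-0.021) were close to 0. The remaining 2 genes were above 0. Ifngr2, a chain of the interferon gamma receptor, had 15.6 to 20.7 CPM with Egfr KO PSCs (median 18.1) and 21.3 to 27.1 CPM with Egfr WT PSCs (median 23.2), without overlap, where 1.52% of all genes had none (adjusted p = 0.440 in edgeR). Irf1, an interferon-induced factor that drives Psmb8, Psmb9 and Tap1, had 80.3, 85.2, 68.8, 64.4 and 59.1 CPM with Egfr KO PSCs, against 115, 84.4, 102, 81.3 and 93.5 CPM with Egfr WT PSCs (log2 fold change -0.41 ± 0.13 SE; adjusted p = 0.471, edgeR). Nlrc5, the transactivator of class I genes, had low levels, at 0.409 ± 0.280 CPM with Egfr KO PSCs and 0.553 ± 0.172 CPM with Egfr WT PSCs.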

How the data were processed

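RNA was measured in 10 libraries, 5 per group, grouped by the PSC line in the labels. The authors deposited estimated counts, TPM and effective lengths per transcript, made with Salmon 1.9.0 and a GRCm39 reference per the submitters' processing notes. In the sources used here the annotation release is not given. The library kit was a low-input one with PCR cycles set by RNA amount, per the labels' protocols, and molecules copied by PCR cannot be told apart. Transcripts were named through GENCODE M21, which covered 98.1 to 98.7% of the deposited estimated counts of each library. Other transcripts were not used, and Psme3ip1 is listed there under an older symbol. Gene sums of the counts, rounded to integers, entered edgeR 4.0.16 (TMM, default filter with minimum count 10, quasi-likelihood F test, Benjamini-Hochberg over 17495 genes, R 4.3.3). DESeq2 1.42.0 and limma 3.58.1 (voom with sample weights) were alternatives. Deposited TPM was summed per gene for levels and for 3 ratios, tested by exact permutation over 252 assignments. SE and intervals came from the F statistic. The edgeR fit was checked on simulated data.

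Levels in both groups are given for the 5 immunoproteasome genes, their 3 counterparts and the 5 other members of lowest p in each direction. So are those of genes among the 2 of lowest p in each pathway list, and of Irf1 and Nlrc5. A fold change or an adjusted p is printed for most of these genes, not for all. Some genes of these lists, though counted in them, are not reported here by name. Members and lists were chosen with earlier results of these data known. Egfr, Tap1, Tap2, Krt19 and Ptprc, and other genes shown only as levels, were added for context. Paaf1 of the partner list was not analysed here. No library pair agreed within sampling noise (lowest chi-square per degree of freedom 39.2).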

Additional observations from a re-analysis of the deposited data

Results flagged for a closer look

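For the 50 proteasome genes past the expression filter, the 3 ratios and the combined contrast, a library that lay far from the other 4 of its group was sought with Dixon's test at the 95% level. Each was examined in both groups, 108 cases in all, of which chance flags about 1 in 20. Psmb11, below the filter, was not examined. Psmb6 was high in Egfr KO PSC replicate 5, at 258.9 CPM where the other Egfr KO PSC libraries had 217 to 229 CPM, and in Egfr WT PSC replicate 5, at 260.0 CPM where the other Egfr WT PSC libraries had 197 to 214 CPM. Psme3 was high in Egfr KO PSC replicate 3, at 34.3 CPM where the other Egfr KO PSC libraries had 15.3 to 18.6 CPM. Psme3ip1 was high in Egfr WT PSC replicate 1, at 73.1 CPM where the other Egfr WT PSC libraries had 61.5 to 64.4 CPM.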

How the results depend on the processing

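No paired analysis was possible because the labels match no Egfr KO PSC library to an Egfr WT PSC library. Over all genes edgeR called 0, against 1 with no filter on low counts, 131 in DESeq2, 3 in limma voom and 0 to 4 when each library was left out in turn. Of the proteasome genes 6 had an unadjusted p under 0.05, against 0 with the macrophage score as covariate. That score differed between the groups, and in that fit the count over all genes was 765, against 1426 without the covariate. The log2 fold changes of Psmb3, Psmd9, Psmc5 and Psme2b were then 0.33, 0.28, 0.21 and -0.52, against 0.35, 0.26, 0.19 and -0.54. The number of proteasome genes was 3 with the number in the deposited file name as covariate (1439 over all genes) and 10 in limma voom (2254 over all genes). It was 3 to 8 when each library was left out, where the count over all genes lay between 992 and 1983. The number of constitutive subunits above 0 lay between 24 and 30 in these left-out fits, and the combined contrast between -0.38 and -0.24. When each library was left out, the log2 ratio differences lay between -1.18 and -0.62 for Psmb8 over Psmb5. They lay between -1.05 and -0.66 for Psmb9 over Psmb6 and between -0.41 and -0.14 for Psmb10 over Psmb7. With 1 TPM added, which is of the order of the Psmb9 level itself, Psmb9 over Psmb6 passed at -0.51. Signs turned for Psmb10 with the fibroblast score (0.040), for Psma8 with the macrophage score (0.82) and for Psme2 with the fibroblast score (0.026) and on leaving out Egfr WT PSC replicate 5 (-0.093 to 0.023 when each library was left out). Psme1 turned under upper-quartile scaling (0.0083), the macrophage score (0.048), the fibroblast score (0.032), protein-coding transcripts only (0.0076, added after seeing the data), DESeq2 (0.0013) and limma voom (0.053), and without 4 of the libraries (-0.051 to 0.043 over all left-out libraries). The cause was not tested. The other 328 alternative values of named genes kept their sign and stayed short of the threshold. Low counts limit Psmb9, Psma8 and Psmb11.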
